A study of Mus musculus with 22 samples.

Results

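The respiratory chain and the ATP synthase were followed through 108 protein-coding genes, picked by symbol alone from the 53801 genes of the bulk tables (the Nduf, Sdh, Uqcr, Cyc1, Cox and Atp5 families and the protein genes of mitochondrial DNA). Of these, 107 also stand among the 19324 genes of the single-cell matrix, where Cox8c is absent. Nuclear-encoded subunits made up 86 of the members, with 36 in complex I, 4 in complex II, 9 in complex III, 20 in complex IV and 17 in complex V. Another 13 are encoded by mitochondrial DNA, 7 for complex I, 1 for complex III, 3 for complex IV and 2 for complex V, and the other 9 are assembly factors, 8 of the Ndufaf family and Atp5s. Ndufa4 and its isoform Ndufa4l2 were counted with complex IV.

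WT mice were C57BL/6J, and the KO (AdipoR1-/-) mice carried a constitutive deletion of the adiponectin receptor 1, from a B6.129P2-Adipor1tm1Dgen line backcrossed to C57BL/6J or an albino relative of it, with both sexes used. Bulk RNA-Seq covered the neural retina, taken from both eyes, and cells of the retinal pigment epithelium (RPE) shaken off the eyecup at P30, and each tissue had 4 WT and 4 KO libraries. Dissociated retinal cells were profiled at 3 ages (P19, P25 and P30), where each genotype had a single library pooled from 4 retinae of 2 mice. The P30 single-cell pair was sequenced apart from the P19 and P25 pairs, so age and sequencing batch cannot be told apart there. Each bulk group stands for 4 mice, and no age other than P30 has replicate libraries.

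Electrons enter the chain at complex I from NADH or at complex II from succinate, pass through complex III and cytochrome c to complex IV, and the proton gradient that complexes I, III and IV build drives complex V. Mitochondrial DNA encodes core subunits of complexes I, III, IV and V, whereas every subunit of complex II is encoded in the nucleus. Several subunits of complex IV exist as isoforms, one used in most tissues and another best known from heart and skeletal muscle. Photoreceptors pack mitochondria into the inner segment and have a high demand for ATP, and the RPE relies on oxidative phosphorylation.

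Total counts ranged from 20133143 to 38409496 per bulk library, and the cells numbered 26764, with median counts of unique molecular identifiers (UMIs) of 1349 to 4357 per cell. The deleted gene was tested first. Adipor1 lay at 588 to 607 CPM (counts relative to the library total, which was TMM-scaled in bulk and the plain UMI total in cells) in WT retina and at 136 to 142 CPM in KO retina, and at 374 to 479 against 139 to 152 CPM in the RPE. RPE genes, 14 in all, summed to 40686 to 62242 CPM in RPE libraries and 490.2 to 593 CPM in retina, and 16 rod genes still summed to 1359 to 20440 CPM in the RPE libraries. At most 15 cell barcodes were shared by any pair of single-cell libraries.

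In the KO retina, the transcripts of mitochondrial DNA were lower and the nuclear-encoded subunits lay slightly below WT, while 2 muscle-type isoforms of complex IV and 2 assembly factors of complex I were higher. Of the 13 mitochondrially encoded members, 10 were called lower and 0 higher by edgeR's quasi-likelihood test at a Benjamini-Hochberg adjusted p below 0.05. Among all 19381 genes tested, 14.7% were called lower and 16.2% higher. Of the 83 nuclear-encoded subunits tested, 15 were called lower and 2 higher, shares that lie near the lower and far under the higher percentage of all genes.

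The summed level of the mitochondrially encoded members was 39252, 38916, 34969 and 41990 CPM in the 4 WT retina libraries and 30626, 32969, 28673 and 23836 CPM in the 4 KO libraries. The groups did not overlap, and KO replicate 4 was the lowest. Nuclear-encoded subunits summed to 7309 to 7817 CPM in WT and 6917 to 7211 CPM in KO. This sum fell over a much smaller range, also without overlap. The ratio of the nuclear to the mitochondrial sum was therefore higher in KO, at 0.218 to 0.290 against 0.174 to 0.210. In KO retina rod genes summed to 40155 to 45403 CPM against 76289 to 82892 CPM in WT, with 15 of 16 called lower. The 13 microglia and macrophage genes were all called higher. Of 8 Müller glia genes, 7 were called higher and 1 lower. The part of these gene sets in the differences of the chain was not tested. In bulk tissue, fewer cells of a type and less RNA per cell cannot be told apart.

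**Figure D1:**
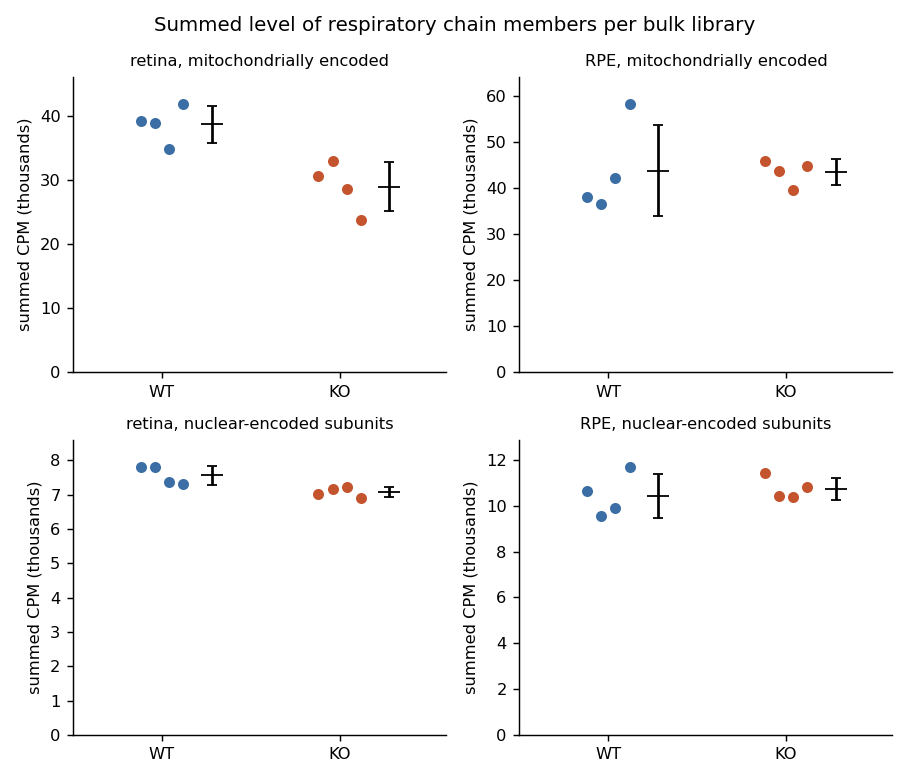
Summed CPM (in units of 1000, axis from 0) of the 13 mitochondrially encoded members and the 86 nuclear-encoded subunits in each bulk library, as 1 point per library with the mean and SD of 4 beside them. In retina the WT and KO points do not overlap in either panel, whereas in the RPE they overlap and WT replicate 4 has the highest mitochondrial sum.

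By complex, the mitochondrially encoded members had median log2 fold changes (KO over WT) of -0.27 in complex I, -0.45 in complex III, -0.42 in complex IV and -0.28 in complex V. All 13 lay below 0, with a median of -0.41, beside a median of 0.0036 for all genes tested, of which 49.2% lay below 0. In 8 of the 13 the WT and KO libraries did not overlap, where 15.2% of all genes were lower without overlap and 16.2% higher. These 13 genes come from 1 polycistronic genome and are not independent of each other.

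In complex IV, mt-Co3 showed the largest drop among these 13 genes, from 3348 to 4649 CPM in WT to 2000 to 3189 CPM in KO (log2 -0.56 ± 0.13 SE, n = 4, adjusted p = 0.0061 by edgeR). mt-Co1, which encodes the catalytic subunit, had values of 12308, 12081, 10944 and 12577 CPM in WT and 9401, 10270, 9075 and 6961 CPM in KO (log2 -0.42 ± 0.11, adjusted p = 0.0088 by edgeR). mt-Co2 fell by 0.41 on the log2 scale. All 3 subunits were thus lower in every KO library than in any WT library.

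In complex I, mt-Nd5 fell from 2183 to 2374 CPM to 1395 to 1791 CPM (log2 -0.46 ± 0.08, adjusted p = 6.11e-04 by edgeR), and mt-Nd4, mt-Nd4l, mt-Nd2 and mt-Nd1 fell by 0.40, 0.43, 0.25 and 0.27. The call for mt-Nd1 was lost in 9 of 16 alternative analyses, and its groups overlapped. mt-Nd3 (log2 -0.15, adjusted p = 0.21 by edgeR) and mt-Nd6 (log2 -0.15, adjusted p = 0.48 by edgeR) did not pass the test. mt-Nd6 is encoded opposite to the other members, and since no source states whether strand was used in counting, its reads cannot be told apart from those across from it. The gene pairs mt-Nd4l and mt-Nd4, and mt-Atp8 and mt-Atp6, overlap, so their reads may be split.

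mt-Cytb, the single mitochondrially encoded subunit of complex III, fell from 5491 to 6389 CPM to 3415 to 4852 CPM (log2 -0.45 ± 0.10, adjusted p = 0.0043 by edgeR). In complex V, mt-Atp6 fell by 0.43 (adjusted p = 0.010 by edgeR), with 1 KO library inside the WT range. mt-Atp8 lay at 239 to 255 CPM in 3 KO libraries, under the 281 to 380 CPM of WT, but at 466 CPM in KO replicate 4, and did not pass the test. The ribosomal RNAs of the same genome, mt-Rnr1 and mt-Rnr2, were called lower as well, by 0.29 and 0.25. In the RPE they had log2 fold changes of -0.54 and -0.62 and were not called (adjusted p = 0.16 and 0.17 by edgeR).

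Among the nuclear-encoded subunits of the retina, the median log2 fold change was -0.082 in complex I, -0.073 in complex II, -0.058 in complex III, -0.041 in complex IV and -0.075 in complex V, so the 5 complexes lay close together. Over all 83 it was -0.074, and 58 of them lay below 0. This small shift depends on scaling: with library totals in place of TMM factors, the median of all genes moved to 0.11 and that of the nuclear-encoded subunits to 0.036, so that relative to all genes they still lay below. Every one of the 26 members called lower changed by less than 1.5 times.

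**Figure D2:**
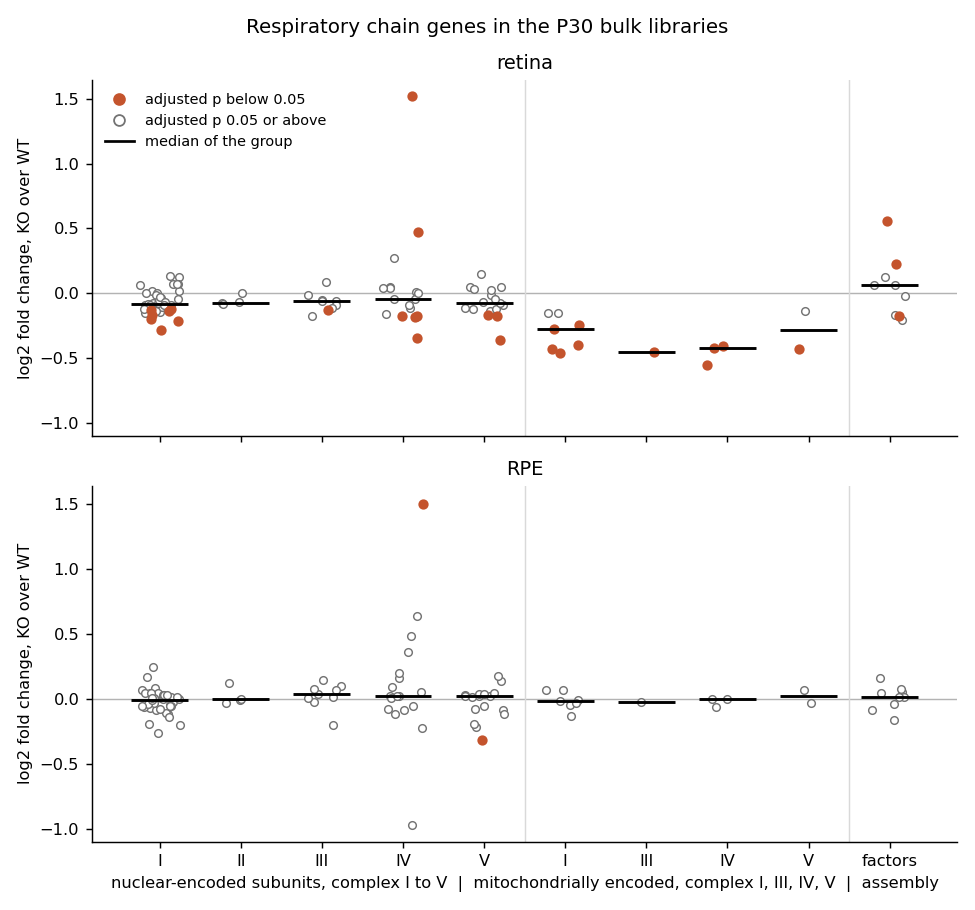
Log2 fold change (KO over WT) of each tested member in retina (top) and RPE (bottom), grouped by complex and by genome; each point is 1 gene, filled where the adjusted p is below 0.05, and bars are medians. In retina the mitochondrially encoded genes all lie below 0 and Cox8b stands apart above; in the RPE Cox8b is again the highest, the group medians lie near 0, and the lowest point is Cox4i2 at -0.97, which was not called.

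Complex I had 7 nuclear-encoded subunits called lower and none higher by edgeR. Of its 36 subunits, 12 were lower in every KO library than in any WT library, where 15.2% of all genes were. Another 2, Ndufa8 and Ndufc1, were higher without overlap, where 16.2% of all genes were. Ndufa10, an accessory subunit of the membrane arm, was at 127, 123, 119 and 116 CPM in WT and 109, 107, 102 and 101 CPM in KO (log2 -0.22 ± 0.04, adjusted p = 0.0013 by edgeR), with no overlap. Ndufb8 (-0.20 on the log2 scale), Ndufb11 (-0.17), Ndufs1 (-0.14), Ndufs3 (-0.13) and Ndufv1 (-0.12) were also called lower. Ndufa10, Ndufs1, Ndufb3, Sdhc and Cox5b lie on chromosome 1 like Adipor1 (chr1:134415378-134433351, GRCm38), the chromosome on which a KO line derived from another strain can keep donor sequence. Whether that bears on their counts was not tested.

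Some assembly factors moved in the other direction. Ndufaf6, needed early in complex I assembly, rose from 6.12 to 7.30 CPM to 9.12 to 11.4 CPM (log2 0.56 ± 0.09, adjusted p = 4.51e-04 by edgeR). Ndufaf5, a hydroxylase that acts on Ndufs7, rose from 30.6 to 32.5 CPM to 34.6 to 39.7 CPM (log2 0.23 ± 0.06, adjusted p = 0.0075 by edgeR). Both were higher in each KO library than in any WT library, whereas Ndufaf4 fell by 0.18, and the other 6 assembly factors did not pass the test.

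None of the 4 subunits of complex II, the succinate dehydrogenase that feeds ubiquinone from the citric acid cycle, was called by edgeR in the retina, and at an unadjusted p under 0.05 there was none either. Sdha lay at 347 to 383 CPM in WT and 321 to 354 CPM in KO (log2 -0.075), Sdhb was at 0.0052, Sdhc at -0.071 and Sdhd at -0.086 on the log2 scale. In complex III, Cyc1, the cytochrome c1 that hands electrons to cytochrome c, fell by 0.13 (adjusted p = 0.017 by edgeR), but the adjusted p was 0.75 with library totals in place of TMM, and the call was also lost in the fit blocked by replicate (adjusted p = 0.056), without KO replicate 1 and with both tissues in a single fit. In complex V, Atp5l, a subunit of the membrane part, fell from 25.1 to 28.7 CPM to 18.9 to 22.2 CPM (log2 -0.36 ± 0.07, adjusted p = 9.68e-04 by edgeR), and Atp5g3 and Atp5k fell by 0.17 and 0.18.

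Complex IV was the most mixed, with 4 nuclear-encoded subunits called lower and 2 higher in retina. Ndufa4 fell from 169 to 190.1 CPM to 124 to 150.1 CPM (log2 -0.34 ± 0.06, adjusted p = 6.67e-04 by edgeR), and Cox5a, Cox6c and Cox7a2l fell by 0.18, 0.17 and 0.18. Both genes that rose are isoforms known from striated muscle. Cox8b rose from 0.476, 0.775, 0.941 and 0.704 CPM in WT to 1.37, 2.84, 2.502 and 1.55 CPM in KO (log2 1.52 ± 0.27, adjusted p = 8.56e-04 by edgeR), and was the only member called with a fold of at least 1.5. Cox7a1 rose from 1.46 to 1.69 CPM to 1.84 to 2.52 CPM (log2 0.47 ± 0.15, adjusted p = 0.032 by edgeR), a call lost in 8 of 16 alternatives. Skeletal muscle genes, 18 in all, summed to 128 to 145 CPM in WT retina, 168 to 178 CPM in 3 KO libraries and 350.4 CPM in KO replicate 2. In that replicate Cox8b was highest as well, and Cox6a2 was at 3.17 CPM against 0.204 to 0.473 CPM in the other 7 libraries. Of the 11 muscle genes tested, 2 were called higher and 0 lower. Pygm, a large part of the sum, was at 83.2 to 94.1 CPM in WT and 117 to 126 CPM in KO. Casq1 was at 0.510 to 0.904 CPM in WT and 1.64 to 6.59 CPM in KO. Without KO replicate 2 the rise of Cox8b still passed the test. Cox8b was far higher in the RPE libraries, at 368 to 463 CPM in KO. The 14 RPE genes summed to 490.5 to 544 CPM in WT retina and 490.2 to 593 CPM in KO retina. Their median log2 fold change in retina was 0.29. Of them, 1 was called higher, Pmel (log2 0.75, adjusted p = 0.020 by edgeR), and 0 lower. Whether RPE or muscle cells in the retina samples bear on the rise of Cox8b was not tested.

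Apart from Ndufa4 and Cox7a2l, both called lower, the partners used in most tissues did not pass the test in retina. Cox8a had a log2 fold change of -0.087, Cox7a2 of 5.67e-04, Cox6a1 of -0.041, Cox6b1 of 0.039 and Cox4i1 of 0.013. Of the other isoforms linked to hypoxia or testis, Cox4i2 was at -0.11, Cox6b2 at -0.16 and Ndufa4l2 at 0.27, none of them called. In the pairs of Cox8b with Cox8a and Cox7a1 with Cox7a2, the muscle isoform thus rose where its partner was not called. The muscle isoform lay at a level far under that of the partner, whereas Cox6a2 was too low to be tested in retina.

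In the RPE, few members were called. Of 84 nuclear-encoded subunits tested, 1 was called higher and 1 lower, where 2.84% of the 18989 genes tested were called higher and 3.89% lower, and none of the 13 mitochondrially encoded members was called by edgeR, with none at an unadjusted p under 0.05. Medians of the log2 fold change were 0.010 for the nuclear-encoded subunits and -0.019 for the mitochondrially encoded members, beside -0.019 for all genes. By complex, the nuclear medians were -0.0046, -0.0016, 0.036, 0.022 and 0.023 for complexes I to V. The WT libraries spread widely for the mitochondrial sum, with 58268 CPM in replicate 4 against 36548 to 42091 CPM in the other 3, and the KO libraries lay at 39544 to 45810 CPM.

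Cox8b was the strongest change of the chain in the RPE. It lay at 154, 111, 144 and 206 CPM in WT and at 449, 368, 457 and 463 CPM in KO, with no overlap (log2 1.501 ± 0.18, n = 4, adjusted p = 0.0028 by edgeR), and passed the test in all 19 alternatives, with log2 values between 1.39 and 1.67. The 18 muscle genes summed to 4734 and 3549 CPM in KO replicates 1 and 4. In KO replicates 2 and 3 they summed to 1453 and 1729 CPM, under the WT range of 1775 to 3445 CPM. Their median log2 fold change was 0.31, and 0 of them were called. Cox6a2 (42.8 and 41.0 CPM) and Cox7a1 (18.8 and 17.7 CPM) were above the WT range in KO replicates 1 and 4, inside it in the other 2, and were not called. Per kilobase of exon, Cox8b had a mean level of 426 CPM in WT and 1207 CPM in KO, beside 642 and 646 CPM for Cox8a. The isoform that lay under its partner in WT thus lay above it in KO.

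**Figure D3:**
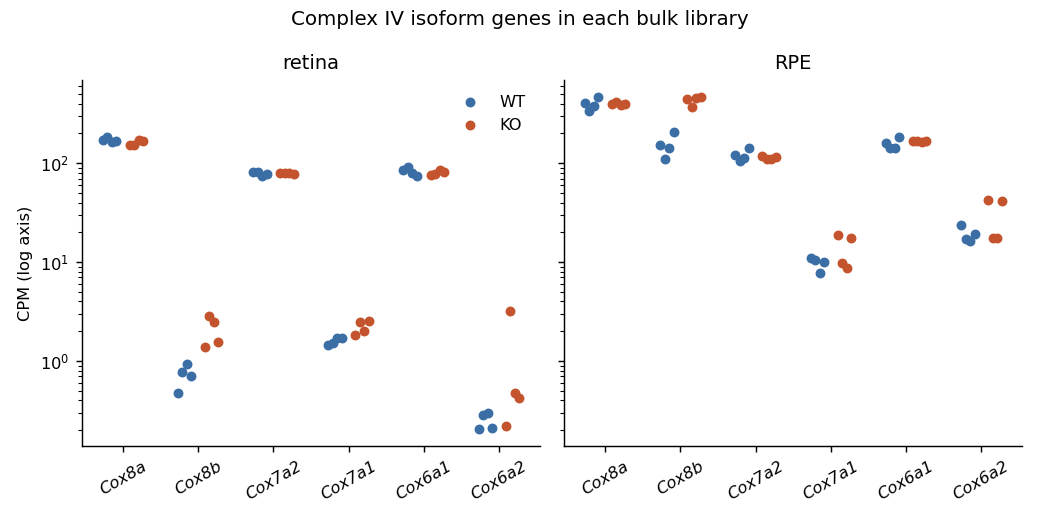
CPM (log axis) of 3 pairs of complex IV isoforms in each bulk library, WT and KO side by side. The widely used genes Cox8a, Cox7a2 and Cox6a1 sit at like levels in both genotypes; Cox8b is higher in all 4 KO libraries of both tissues, and Cox6a2 is raised in KO replicate 2 of the retina and in KO replicates 1 and 4 of the RPE.

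The sum of the nuclear-encoded subunits of complex IV was 2271 to 2492 CPM in KO RPE and 1848 to 2432 CPM in WT, with means of 2384 and 2073 CPM. Without Cox8b, the other 19 genes averaged 1950 ± 77.2 CPM (SD, n = 4) in KO and 1919 ± 222 CPM in WT. Most of the gap between the means was thus carried by Cox8b. The 250 bases before the transcription start of Cox8b are shown beside those of Cox8a, and those of Cox7a1 beside Cox7a2. In retina both muscle isoforms were called higher where these partners were not called, though the call for Cox7a1 was lost in 8 of 16 alternatives. In the RPE only Cox8b was called. Sequences are from RefSeq on GRCm38.p6, 5′ to 3′ on the strand of the gene, with each CG dinucleotide in capitals.
Cox8b: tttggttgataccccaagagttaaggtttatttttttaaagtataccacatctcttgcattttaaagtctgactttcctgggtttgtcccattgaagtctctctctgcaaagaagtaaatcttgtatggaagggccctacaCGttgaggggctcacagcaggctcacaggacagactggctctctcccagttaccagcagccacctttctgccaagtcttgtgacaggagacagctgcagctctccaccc
Cox8a: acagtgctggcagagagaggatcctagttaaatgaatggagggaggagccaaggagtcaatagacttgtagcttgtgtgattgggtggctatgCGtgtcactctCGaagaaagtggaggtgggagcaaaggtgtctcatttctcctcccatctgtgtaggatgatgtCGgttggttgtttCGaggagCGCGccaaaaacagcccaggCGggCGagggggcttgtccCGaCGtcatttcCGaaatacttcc
Cox7a1: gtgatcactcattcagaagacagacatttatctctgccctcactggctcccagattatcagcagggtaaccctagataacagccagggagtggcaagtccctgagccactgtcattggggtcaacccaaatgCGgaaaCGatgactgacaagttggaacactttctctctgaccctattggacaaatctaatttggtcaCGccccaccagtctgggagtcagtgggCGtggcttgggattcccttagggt
Cox7a2: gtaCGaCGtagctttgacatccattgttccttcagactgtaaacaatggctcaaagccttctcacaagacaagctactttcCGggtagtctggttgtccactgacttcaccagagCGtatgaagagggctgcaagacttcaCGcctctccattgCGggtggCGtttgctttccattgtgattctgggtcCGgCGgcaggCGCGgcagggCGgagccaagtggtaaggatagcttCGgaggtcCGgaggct

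Cox8b lies on the minus strand (chr7:140900447-140900696) and Cox8a likewise (chr19:7217617-7217866), Cox7a1 on the plus strand (chr7:30183921-30184170) and Cox7a2 on the minus strand (chr9:79759854-79760103). The stretch of Cox8b holds 1 CG dinucleotide and that of Cox7a1 holds 4, against 11 for Cox8a and 14 for Cox7a2. A start-site sequence was found for 75 of the 108 members, with a median of 14.5 CG dinucleotides, beside 6.0 over all 32851 promoters of the table. The muscle isoforms thus had fewer CG dinucleotides than most members. Of 4 motifs searched on both strands, CAGCTG, an E-box bound by myogenic and other helix-loop-helix factors, starts 19 bases before the start of Cox8b and is found in 8.0% of the 75 members and 13.0% of all promoters. GCGCATGC, the core bound by NRF1, is found in 12.0% of the members and 2.26% of all promoters, CCGGAAGT, an ETS core, in 4.0% and 2.88%, and TATAAA in 9.33% and 12.4%. None of these last 3 is in the 4 stretches shown.

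The single-cell libraries hold a small cluster of 83 cells with RPE genes in the lead (Ttr, Pmel, Rgr, Rpe65), here called RPE-like. These cells carried 57.2% of all Cox8b UMIs, and 54.2% of them had at least 1, against 0.15% of rods and 0.13% of cones, at medians of 1559, 1083 and 3805 UMIs per cell. Cox8b in RPE-like cells was at 637 CPM (95% Poisson interval 476 to 835) in WT and 903 CPM (689 to 1162) in KO at P19, at 357 (131 to 776) and 4400 CPM (3366 to 5652) at P25, and at 229 (84.2 to 499) and 1823 CPM (1353 to 2404) at P30. KO was higher at each age, with intervals that do not overlap at P25 and P30, but these values rest on 27, 26, 6, 4, 8 and 12 cells of 1 library each. The intervals cover counting error only, and with 1 library per genotype and age the level has no test. An unnamed cluster of 146 cells led by Optc, Fbln1 and Crhbp held 91 of the remaining UMIs.

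The other call in the RPE, Atp5h, a subunit of the peripheral stalk of complex V, fell from 65.5 to 77.0 CPM to 52.4 to 60.3 CPM (log2 -0.32 ± 0.07, adjusted p = 0.038 by edgeR). It was lost in 11 of 19 alternatives, with adjusted p up to 0.18, among them the fit blocked by replicate and 7 of 8 fits that left out a library. Cox6c (54.6 to 74.6 CPM in WT, 76.8 to 90.7 CPM in KO, adjusted p = 0.077 by edgeR) and Ndufa11 were higher in every KO library than in any WT library but did not pass the test. In all, 3 of 84 nuclear-encoded subunits were higher without overlap and 1 lower, where 7.37% and 7.81% of all genes were. Lens genes summed to 1047 and 1756 CPM in WT replicates 2 and 4 of the RPE and to 299.7 to 407 CPM in the other 6, and rod genes to 20353 and 20440 CPM in WT replicates 2 and 3 and to 1359 to 7485 CPM in the rest. Microglia and macrophage genes summed to 449 to 713 CPM in WT and 838 to 941 CPM in KO RPE (11 of 13 called higher), without overlap. The 8 Müller glia genes summed to 12688 to 18790 and 20419 to 20782 CPM, also without overlap. Of these 8, only Clu was called higher (5301 to 7966 CPM in WT, 12118 to 12531 CPM in KO) and 0 lower. Their median log2 fold change was -0.22, and Glul was lower in every KO library, though not called. Rpe65 and Lrat, genes of the visual cycle, were the 2 of 14 RPE genes called lower (-0.94 and -0.74 on the log2 scale). The part of all these in the RPE values, Cox8b included, was not tested beyond the covariate fits for rod, muscle and lens genes.

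The KO effect differed between the tissues for 4 members, all with a higher log2 fold change in the RPE than in the retina, in a test of the interaction over all 16 bulk libraries. Among 21068 genes, 3.12% had a higher and 5.73% a lower effect in the RPE. Cox6c had the largest difference (0.55 ± 0.11 on the log2 scale, adjusted p = 0.0072 by edgeR), being called lower in retina and lying above WT in the RPE. The differences were 0.41 for Ndufa1 and 0.25 for Ndufa10, which lay at 0.24 and 0.0079 in the RPE. In the fit blocked by replicate, Cox6c (adjusted p = 0.027 by edgeR) and Ndufa1 (adjusted p = 0.028 by edgeR) stayed called and Ndufa10 did not (adjusted p = 0.091 by edgeR), and the number of members called ran from 2 to 12 when a library was left out, with 12 without WT RPE replicate 4. For the mitochondrially encoded members the difference did not pass the threshold in any gene, the smallest adjusted p being 0.062 for mt-Nd5 (0.55 ± 0.17). The lower level in the retina is therefore not shown to be absent from the RPE. For Cox8b the difference was 0.0051 and was not called. No SE is given for it, because the SE was derived from the difference itself and is unreliable so near 0. A difference that was not called does not show that the rise was equal in both tissues.

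Rods, 8047 of the 26764 cells, were compared within each age. Nuclear-encoded subunits were higher in KO rods at each age, with median log2 ratios of 0.48, 0.27 and 0.12 at P19, P25 and P30, beside 0.039, 0.049 and 0.0029 for all 9626 genes tested. Of 79 subunits tested, 53 were higher at all 3 ages and 0 lower, where 2300 of all 9626 genes were higher and 1756 lower at all 3. Mitochondrially encoded members went from a median of 0.41 at P19 to -0.18 at P25 and -0.27 at P30. The direction at P25 depended on the clustering: at a Leiden resolution of 0.5 the 3 medians were 0.43, 0.23 and -0.27, with 10 of 13 genes higher at P25 against 3 of 13. In bulk retina at P30, which holds all cell types, the same 2 medians were -0.074 and -0.41. Over all cells of the single-cell libraries at P30 they were 0.057 and 0.058, beside -0.095 for all genes. The lower medians of bulk retina were thus not seen there, although the mitochondrially encoded sum over all cells was slightly lower in KO (log2 -0.054).

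The rods of the genotypes fell into different clusters, although clusters were formed without the members and without mitochondrial genes. At P19 and P25, 92.7% and 95.1% of WT rods were in a cluster led by Gm19667, Rp1 and Pdzph1, and 90.7% and 92.4% of KO rods in one led by Lrrc2, Rp1 and Fgf2. At P30, 96.7% of WT rods were in a cluster with Pde6g and Gnat1 among its leading genes, and 96.7% of KO rods in one led by 6430562O15Rik, Edn2 and Pcolce. Median depth was alike, at 1019 to 1189 UMIs per rod. In these rods 12 bipolar cell markers differed by log2 ratios of 0.25, 0.07 and -0.65 at the 3 ages, 8 Müller glia markers by 0.19, 0.55 and -0.65, and 9 amacrine cell markers by 0.17, -0.10 and -1.53. Their part in the ratios of the chain was not tested.

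By complex, the median ratios of nuclear-encoded subunits in rods at P19, P25 and P30 were 0.48, 0.23 and 0.13 in complex I, 0.18, 0.31 and 0.020 in complex II, 0.44, 0.27 and 0.13 in complex III, 0.64, 0.31 and 0.19 in complex IV and 0.46, 0.30 and 0.057 in complex V. Complexes I, III, IV and V had the highest median at P19 and the lowest at P30. Mitochondrially encoded members of complex IV had medians of 0.41, -0.32 and -0.56. The summed level of all nuclear-encoded subunits in rods was 17774, 17296 and 36971 CPM in WT and 24336, 20616 and 39129 CPM in KO, in the order of age, and that of the mitochondrially encoded members 26730, 26996 and 35819 CPM in WT and 36419, 24126 and 28079 CPM in KO. The nuclear to mitochondrial ratio was alike at P19 (0.665 in WT, 0.668 in KO) and higher in KO at P25 (0.641 and 0.855) and P30 (1.03 and 1.39).

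**Figure D4:**
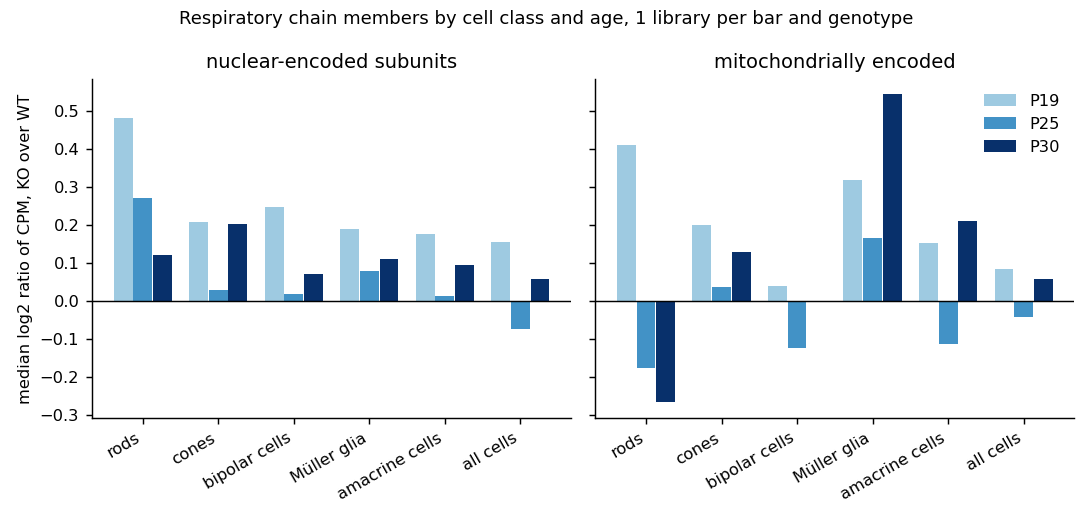
Median log2 ratio of CPM (KO over WT) of nuclear-encoded subunits (left) and mitochondrially encoded members (right) in each cell class at P19, P25 and P30, each bar from 1 WT and 1 KO library. Rods have the highest nuclear bar at P19 and P25 and mitochondrial bars above 0 at P19 and below 0 at P25 and P30 (above 0 at P25 with a Leiden resolution of 0.5); Müller glia have mitochondrial bars above 0 at each age.

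With the ages as blocks (limma-trend on log2 CPM, 6 libraries, 2 residual degrees of freedom), 9 members were called in rods, all higher in KO, where 4.79% of all genes were called higher and 2.42% lower. Of the 101 members tested, 45 had an unadjusted p under 0.05, 44 of them higher. Among all 9626 genes, 2047 did, 1251 of them higher. The assembly factor Ndufaf6 was at 11.4, 28.5 and 15.9 CPM in WT and 42.1, 51.0 and 47.1 CPM in KO (log2 1.37 ± 0.22, adjusted p = 0.0013 by limma), and Ndufaf5 at 47.2, 51.8 and 189.7 CPM in WT and 66.4, 94.8 and 539 CPM in KO (log2 0.95 ± 0.17, adjusted p = 0.0033 by limma). Both were higher at each age, passed the test in all 10 alternatives and were also called higher in bulk retina. In the RPE the same genes had log2 fold changes of 0.044 and -0.037 and were not called.

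The other 7 calls in rods were Ndufaf8, Ndufa2, Ndufa3, Ndufv3, Cox5b, Cox6a1 and Cox7c, named after their values were seen. Ndufv3, a small subunit near the NADH site, had ratios of 0.62, 0.62 and 0.67 at the 3 ages, the most even of these (log2 0.63 ± 0.11, adjusted p = 0.0034 by limma). Cox5b, at 237, 196 and 616 CPM in WT and 382, 363 and 739 CPM in KO, had ratios of 0.69, 0.89 and 0.26. The other 5 had estimates of 0.46 to 0.63. Without P19 5 members were called, without P25 4 and without P30 38, so the number of calls turns on the ages used.

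**Figure D5:**
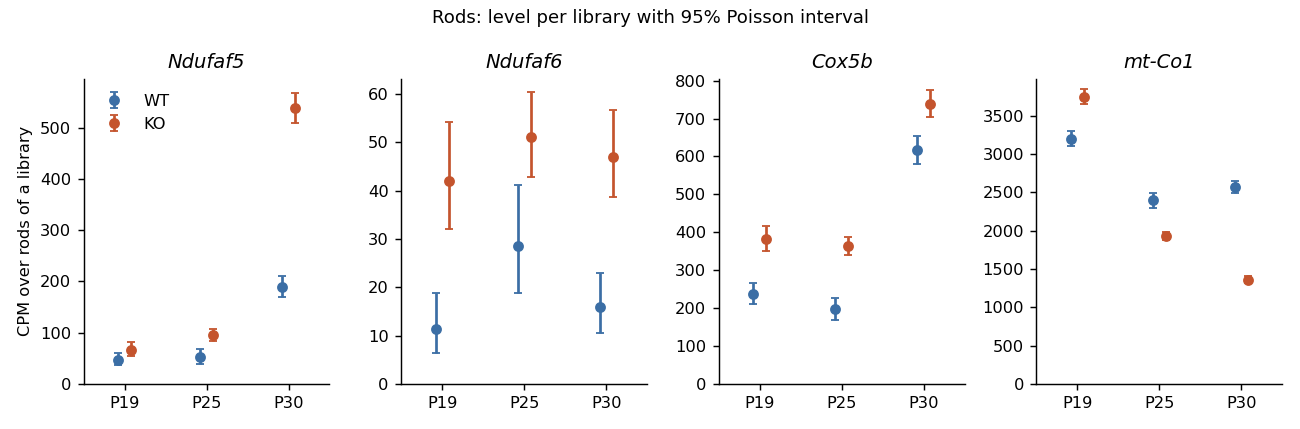
CPM over the rods of each library (axis from 0) for Ndufaf5, Ndufaf6, Cox5b and mt-Co1, with 95% Poisson intervals that cover counting error only. The 2 assembly factors and Cox5b are higher in KO at each age, and mt-Co1 is higher in KO at P19 and lower at P25 and P30.

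Among the 2 members of each complex with the most UMIs in rods, none was called by limma. In complex I, Ndufb11 had ratios of 0.49, 0.07 and 5.07e-04. In complex II, Sdha lay at ratios of -0.0014, 0.050 and 0.069 and Sdhb at 0.37, 0.35 and 0.24. In complex III, Uqcrb had 0.49, 0.0019 and 0.13 and Uqcrh 0.58, 0.085 and 0.023. In complex IV, Ndufa4 had 0.53, 0.14 and -0.31 and Cox4i1 0.48, 0.60 and 0.23, and in complex V Atp5b had 0.19, 0.38 and 0.012 and Atp5l 0.37, 0.20 and 0.18. Sdha and Uqcrb apart, each of these genes had its lowest ratio at P30.

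In the other classes the nuclear medians were smaller than in rods at P19 and P25, whereas at P30 that of cones was larger. Nuclear medians at the 3 ages were 0.21, 0.029 and 0.20 in cones, 0.25, 0.019 and 0.071 in bipolar cells, 0.19, 0.080 and 0.11 in Müller glia and 0.18, 0.012 and 0.095 in amacrine cells. In bipolar cells 1 member was called where 0.0671% of all genes were: Atp5mpl, a small proteolipid of complex V, with ratios of 0.75, 0.57 and 0.66 (log2 0.66 ± 0.07, adjusted p = 0.024 by limma), named after its values were seen. None was called by limma in cones, Müller glia or amacrine cells, where 0.0585%, 1.53% and 0.00779% of all genes were. An unadjusted p under 0.05 was reached by 20 of 101 members in cones, 33 of 104 in Müller glia and 20 of 104 in amacrine cells. Among all genes, 548 of 8545, 1610 of 10350 and 645 of 12842 reached it. Over all cells none was called either, by limma or by edgeR, where 0.982% of all genes were by limma. There, 12 of 107 members and 2500 of 16490 genes had an unadjusted p under 0.05.

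Müller glia had higher ratios for mitochondrially encoded members, with medians of 0.32, 0.16 and 0.54 beside -0.14, -0.092 and -0.16 for all genes. The summed level was 41714, 43996 and 19857 CPM in WT and 55024, 51821 and 29804 CPM in KO. KO was thus higher at each age, in libraries of 1 pool each and with no gene past the test, while the rod medians lay below 0 at P30, and at P25 in all but the coarser clustering. The smallest adjusted p was 0.058 for mt-Co1 (log2 0.47 ± 0.09 by limma). KO Müller glia also had the higher median UMI count at each age, 5014, 5488 and 3076 against 3945, 4441 and 1831 in WT, and the part of depth in these values was not tested. In all libraries the highest mitochondrial share of any cell was under 20%, at most 19.99%.

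Other genes of mitochondrial energy supply were followed through lists outside the members. In bulk retina, 8 of 16 regulators of mitochondrial biogenesis were called lower and 0 higher by edgeR, with a median log2 fold change of -0.17. Ppargc1b, a coactivator of mitochondrial genes, fell by 0.88 and Esrrb, an oestrogen-related receptor, by 0.89. Of 29 genes tested for mitochondrial transcription and replication, 6 were lower and 1 higher, among them Polg2, an accessory subunit of the mitochondrial DNA polymerase (log2 -0.72), and Top1mt (-0.76). Of 45 assembly factors outside the members, 7 were lower and 0 higher, with Lrpprc, which stabilises mitochondrial messenger RNA, at -0.58 and Coa7 at -0.40.

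In the remaining lists, calls lower and higher were 6 and 3 of 81 for the mitochondrial ribosome (Mrpl49 -0.46, Mrps27 0.54), 4 and 0 of 25 for protein import (Timm44 -0.52, Timm17a -0.31), 5 and 1 of 19 for the citric acid cycle (Pdhb -0.22, Dld -0.19), 2 and 1 of 13 for coenzyme Q synthesis (Coq6 -0.23, Coq4 0.34), 1 and 1 of 9 for cytochrome c and electron carriers to ubiquinone (Etfdh -0.19, Gpd2 0.27) and 2 and 3 of 14 for uncoupling and antioxidant genes (Cat 0.34, Ucp2 0.63). Beside the 14.7% of all genes called lower, the biogenesis list had the largest share and the ribosome list the smallest. In the RPE these 9 lists held 3 calls among 252 tested entries, under the 2.84% higher and 3.89% lower of all genes: Etfb (-0.45) and Ppara (-0.64) lower and Pdha1 (0.45) higher. In rods over the 3 ages they held 7 higher (2.93%) and 4 lower (1.67%) among 239 entries, also under the 4.79% and 2.42% of all genes, with medians of 0.29 for import and 0.21 for the mitochondrial ribosome.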

How the data were processed

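Bulk RNA-Seq (total RNA, TruSeq) and 10x single-cell libraries were used. The deposited bulk tables hold raw read counts per gene, and per the labels the authors used mm10, edgeR 3.20.9 and HOMER. The authors deposited single-cell values on a natural log scale, with each cell scaled to 10000; the values themselves show that this log normalization was applied a second time. Per the labels, Cell Ranger 2.1 and Seurat 3.2.2 were used; no source used here gives the cell filters. Undoing both logs gave whole UMIs (within 0.01) for all but 7 values.

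Bulk counts were tested with edgeR 4.0.16 (R 4.3.3; TMM, filterByExpr, quasi-likelihood, Benjamini-Hochberg below 0.05), 4 against 4 libraries per tissue, and the interaction over 16. Cells were clustered with scanpy 1.11.5 (2000 variable genes, 30 components, 15 neighbours, Leiden resolution 1.0) without the members or mitochondrial genes; no doublet caller was run. UMIs were summed per class and library and tested with limma 3.58.1 (limma-trend, log2 CPM, prior count 2, age as a factor, 2 residual degrees of freedom); ratios per age used a prior count of 0.5. Intervals are 95% Poisson. Gene symbols came from GENCODE M21. Statistical steps were tested on simulated data.

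Some items are counted but not reported here by name. Members and lists were chosen with earlier results of these data known. Named genes were, per tissue and complex, the 2 called higher and the 2 lower with the smallest p, every mitochondrially encoded member, complex IV isoforms and partners, complex II, the 2 members per complex with most UMIs in rods, members of the interaction and 2 genes per list. The main bulk tests were unpaired, and a fit with the replicate number of the labels as a block was run as an alternative. Same-numbered WT and KO libraries deviated together from their group means (r = 0.157 to 0.218 in retina and 0.287 to 0.655 in RPE). Some correlated more strongly with another number (up to 0.173 and 0.617), so the pairing is uncertain. No source says what a number marks. Alternatives covered scaling, filters, DESeq2 1.42.0, limma-voom, marker covariates, the block, clustering and leaving out libraries or ages.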

Additional observations from a re-analysis of the deposited data

Results flagged for a closer look

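In groups of 4 bulk libraries, 1 library stood far from the other 3 in 14 of 218 groups checked, where chance alone flags about 5 percent. In KO retina, replicate 4 was apart for mt-Nd5 (1395 CPM against 1732 to 1791), Sdha (321 against 349 to 354), Cox7a2 (76.9 against 79.0 to 79.4) and mt-Atp8 (466 against 239 to 255), and replicate 2 for mt-Nd6 (22.6 against 14.5 to 15.8). Replicate 4 was thus low in most of these genes and high in mt-Atp8.

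In WT RPE, replicate 4 was apart, and high, for mt-Co1 (17655 CPM against 11865 to 12640), mt-Co2 (6102 against 3646 to 3874), mt-Co3 (5831 against 3338 to 3755), the summed mitochondrial members of complex IV (29588 against 18888 to 20268), Ndufa10 (115 against 100.4 to 102), Uqcrh (206 against 162 to 168) and Cox7a2l (81.8 against 68.7 to 70.7). In KO RPE, Cox8b was lowest in replicate 2 (368 CPM against 449 to 463) and mt-Atp8 lowest in replicate 3 (353 against 556 to 585). The KO value of Cox8b in replicate 2 still lay above every WT library.

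The KO effect differed between RPE and retina, by edgeR's interaction test, for Cox6c (0.55 on the log2 scale, adjusted p = 0.0072), Ndufa1 (0.41, adjusted p = 0.026) and Ndufa10 (0.25, adjusted p = 0.048).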

How the results depend on the processing

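None of the results changed direction while called. In retina, 4 members were higher and 26 lower; these became 17 and 11 with library totals in place of TMM, 2 and 9 with both tissues in a single fit, and 1 and 0 with a fold of at least 1.5. The nuclear median of -0.074 became 0.036 with library totals. In the RPE, 1 member was higher and 1 lower; the number higher was 2 with DESeq2, 2 with the lens gene level as a covariate (added after seeing the data), 3 with both tissues in a single fit and 1 to 3 when a library was left out, with 3 without WT replicate 4. The number lower in the RPE was 0 with no filter, 2 with DESeq2, 3 with the rod covariate, 0 with the muscle and 0 with the lens covariate, 2 in the single fit, 0 with the fold and 0 to 2 when a library was left out. The interaction gave 4 members and 2 to 12 when a library was left out, 12 without WT RPE replicate 4 and 2 without WT retina 1, KO retina 1, KO retina 4 or KO RPE 1. In rods, 9 members became 22 without the 5% of cells with most UMIs, 17 with the mean of per-cell CPM, 16 at Leiden resolution 0.5, 5 without P19, 4 without P25 and 38 without P30. Over all cells, 0 became 1 with the mean of per-cell CPM and 1 without P19. The causes were not tested.

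With the replicate number as a block, the same 4 members were higher in retina and 24 lower, 22 of them shared; in the RPE 1 was higher and 1 lower, but Atp5h was lost; and the interaction gave 5, of which 2 were shared. Cox8b in both tissues and Ndufa4, Atp5l, Ndufaf6, mt-Cytb, mt-Nd4l and mt-Nd5 in retina passed the test in every alternative run. Single-cell values rest on 1 library per genotype and age, so they carry no replicate error at any age.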
